A study of Mus musculus with 12 samples.

Results

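The guanylate-binding proteins were followed in TNF-exposed mouse glomeruli that carried or lacked the TNF receptors. The 8 genes Gbp2, Gbp2b, Gbp3, Gbp4, Gbp5, Gbp6, Gbp7 and Gbp9 were taken by name, on each probe set (a group of short probes read as 1 signal) that the platform annotation assigns to them. They held 9 of the 45101 probe sets on the array. Gbp2, Gbp2b, Gbp3, Gbp6 and Gbp7 had probe sets of their own, which made 5 of the 18193 genes tested. Gbp4 was annotated only on a probe set that it shares with Gbp8, so that no value is given for Gbp4 alone. Gbp5 and Gbp9 had no annotated probe set and have no value.

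Glomeruli, the filtering capillary tufts of the kidney, were isolated with magnetic beads from male mice aged 6 to 8 weeks. The isolation strips them of Bowman's capsule. Cultures of 5000 glomeruli were serum starved and kept for 12 hours with murine TNF at 50 ng/ml. The genotypes were Tnfr1,2-/-, lacking TNF receptors 1 and 2; Tnfr1-/- (B6.129-Tnfrsf1atm1Mak), lacking TNF receptor 1; Tnfr2-/- (B6.129-Tnfrsf1btm1Mwm), lacking TNF receptor 2; and wildtype. The double mutant and the wildtype controls, which the methods call C57BL/6J, were bred by crossing the single mutants. The deletions are present in every cell of the animal, and each of the 12 arrays (3 per genotype) held 1 RNA preparation. All 4 groups had received TNF, so no value below is a response to TNF against unstimulated glomeruli. The methods call the preparations independent but do not state whether each came from a different animal.

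Guanylate-binding proteins are large GTPases of the dynamin superfamily. Interferons, above all interferon-gamma, are their best known inducers, and they assemble on the membranes of vacuoles and bacteria inside the cell, where they help to expose the invader and to start inflammasome signalling. In human endothelial cells GBP1 is also known as a gene switched on by inflammatory cytokines. In the mouse the family lies in 2 clusters. In the RefSeq annotation of GRCm38.p6 the order on chromosome 3 was Gbp5, Gbp7, Gbp3, Gbp2b and Gbp2, followed by the pseudogene Gbp2-ps, and on chromosome 5 it was Gbp8, Gbp9, Gbp4, Gbp10, Gbp6 and the transcribed pseudogene Gbp11. Gbp10 and Gbp11 had no annotated probe set.

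The RefSeq promoter table (GRCm38.p6) held 5 of the 8 genes, Gbp2, Gbp2b, Gbp3, Gbp5 and Gbp7, with 6 promoters of 300 bases that run from 250 bases before to 50 bases after a start site. The motif GAAANNGAAA, a form of the interferon-stimulated response element that interferon regulatory factors bind, was searched on both strands and was present in all 5 genes, in 5 of the 6 promoters. It was present in 3.44% of the 32851 promoters of the table. Each match lay on the minus strand, so its reverse complement is what reads below. Those of Gbp2 and Gbp2b had the same 10 letters, TTTCACTTTC, starting at position -59 in Gbp2 and at position -137 in Gbp2b (counted from the start site). The promoters of the 4 genes that have both a promoter and array values are printed with these matches in capitals; in Gbp3, whose other promoter had no match, 2 matches overlap.
Gbp2 (chr3:142620413-142620712, plus strand): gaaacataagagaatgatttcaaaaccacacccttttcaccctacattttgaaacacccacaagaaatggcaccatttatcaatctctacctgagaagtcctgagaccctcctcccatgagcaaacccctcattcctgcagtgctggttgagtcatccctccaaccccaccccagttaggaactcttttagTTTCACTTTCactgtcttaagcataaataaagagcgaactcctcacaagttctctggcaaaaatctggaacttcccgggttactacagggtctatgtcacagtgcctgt
Gbp2b (chr3:142594597-142594896, plus strand): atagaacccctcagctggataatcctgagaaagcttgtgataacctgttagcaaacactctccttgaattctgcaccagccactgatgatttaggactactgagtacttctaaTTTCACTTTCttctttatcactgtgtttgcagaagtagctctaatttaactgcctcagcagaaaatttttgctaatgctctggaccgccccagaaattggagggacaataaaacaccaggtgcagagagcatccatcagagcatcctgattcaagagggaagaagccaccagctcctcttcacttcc
Gbp3 (chr3:142559794-142560093, plus strand): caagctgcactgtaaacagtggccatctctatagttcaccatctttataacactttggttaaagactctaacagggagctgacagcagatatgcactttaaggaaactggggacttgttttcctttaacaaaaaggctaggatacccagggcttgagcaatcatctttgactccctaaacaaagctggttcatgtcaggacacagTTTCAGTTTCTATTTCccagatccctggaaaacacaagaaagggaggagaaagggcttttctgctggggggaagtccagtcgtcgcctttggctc
Gbp7 (chr3:142530086-142530385, plus strand): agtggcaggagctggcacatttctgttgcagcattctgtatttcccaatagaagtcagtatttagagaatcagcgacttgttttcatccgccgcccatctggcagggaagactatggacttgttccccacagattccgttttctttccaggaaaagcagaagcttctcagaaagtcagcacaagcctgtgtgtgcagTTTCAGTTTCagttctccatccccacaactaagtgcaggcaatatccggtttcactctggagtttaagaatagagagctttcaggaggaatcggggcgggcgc

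The NF-κB consensus was found on either strand in the promoters of 2 of the 5 genes, Gbp2 and Gbp5, and in 8.46% of all promoters, and these matches overlapped none of those above. A match describes letters in this window only, and binding was not measured.

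The arrays were checked before the genes were compared. Podocyte, endothelial and mesangial markers had mean log2 values of 9.83 to 11.48, 8.72 to 10.24 and 9.07 to 9.77 on the 12 arrays. Below the median of every array lay 3 of 10 tubular markers (Cubn, Slc34a1 and Slc22a6) and 6 of 9 neutrophil markers. The same was so for only 2 of 11 macrophage markers (Itgam and Cx3cr1), whose list had means of 7.44 to 8.41, so macrophage transcripts were present. Fewer cells of a type and less RNA per cell cannot be told apart in such whole-glomerulus samples. Tnfrsf1b, which encodes TNF receptor 2, averaged 5.48 ± 0.10 in Tnfr1,2-/- and 5.33 ± 0.36 in Tnfr2-/-, against 7.48 ± 0.81 in Tnfr1-/- and 7.63 ± 0.20 in wildtype glomeruli (SD, n = 3 each). Tnfrsf1a, which encodes TNF receptor 1, was less reduced, at 9.29 ± 0.28 in Tnfr1,2-/- and 9.74 ± 0.47 in Tnfr1-/-, against 10.73 ± 0.12 in Tnfr2-/- and 10.56 ± 0.28 in wildtype glomeruli. 1 library went against its label: Tnfr1-/- replicate 1, labelled male, had an Xist value of 10.41, against 4.35 to 5.36 on the other 11 arrays, while the Y-linked Eif2s3y read 7.87 there and 8.41 to 9.58 elsewhere, and the Y-linked Kdm5d 6.57 there and 7.05 to 8.97 elsewhere. The Y-linked genes were thus the lowest of the 12 arrays but above the array median, together with a high Xist. Tnfr1-/- replicate 2 stood apart in its cell markers, with the lowest podocyte mean (9.83) and the highest endothelial mean (10.24) of the 12 arrays. Where these arrays moved a called value of the family by over 1.5 times or ended a call, the value without them is given, and the pathway lists below use all 12 arrays. The difference between the 3′ and 5′ control probe sets of beta-actin split the arrays into 2 sets, 7 arrays at 0.667 to 1.005 and 5 arrays at 1.82 to 2.30, and each genotype had arrays in both sets.

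In glomeruli that lacked TNF receptor 1, with or without receptor 2, Gbp2, Gbp3 and Gbp6 had far lower signals than in wildtype glomeruli, by 12.6-fold to 24.2-fold. Gbp7 was about 2-fold lower without passing the test. In glomeruli that lacked receptor 2 alone none of the 5 genes passed the test. Neither did any other of the 18193 genes, the targeted Tnfrsf1b included. Gbp2b was below the array median on all 6 Tnfr1,2-/- and Tnfr1-/- arrays and at 10.79 to 12.34 on 5 of the 6 other arrays, but 1 wildtype array read as low as the arrays without receptor 1. A gene was called when its adjusted p was under 0.05 (limma over all 12 arrays, Benjamini-Hochberg over all 18193 genes) and its change at least 1.5-fold.

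**Figure D1:**
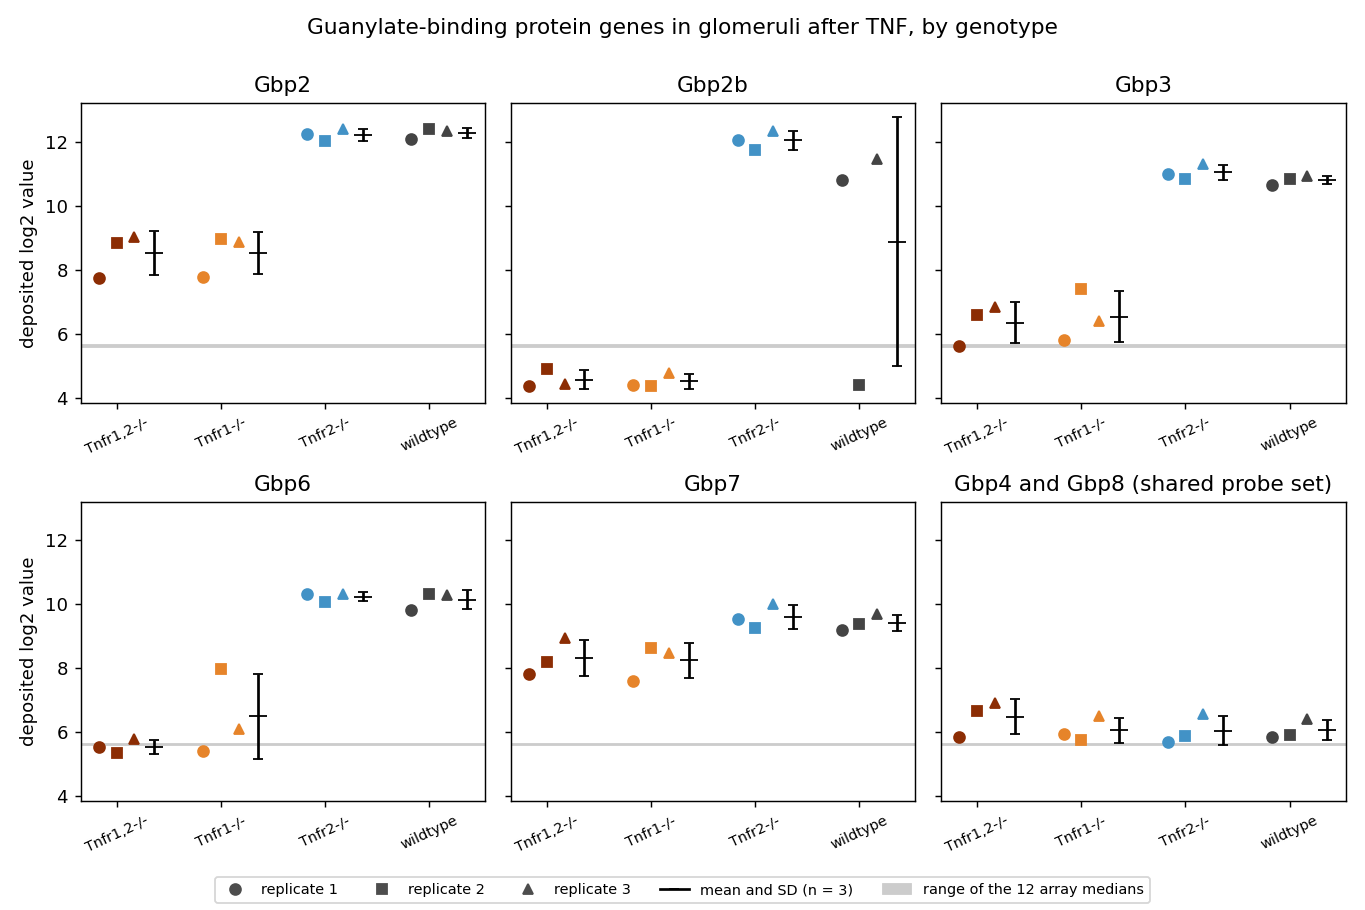
Deposited log2 value (y axis) of 5 guanylate-binding protein genes and of the probe set shared by Gbp4 and Gbp8, by genotype (x axis); each symbol is 1 array, the bar is the mean and SD of 3 arrays, and the grey band is the range of the 12 array medians (5.59 to 5.64). Tnfr1,2-/- and Tnfr1-/- arrays lie below all Tnfr2-/- and wildtype arrays for Gbp2, Gbp3, Gbp6 and Gbp7, and wildtype replicate 2 is at 4.39 for Gbp2b.

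In the comparison of Tnfr1,2-/- with wildtype glomeruli 3 of the 5 genes were called, all lower, where 0.879% of all genes were called lower. The median log2 change of the 5 genes was -4.32, against 0.00 over all genes. This median is the value of Gbp2b, which was not called. In the comparison of Tnfr1-/- with wildtype glomeruli 3 of the 5 were called, again lower, where 0.72% of all genes were, and their median log2 change was -3.74. Ordered from the largest decrease among 18193 genes, Gbp6, Gbp3, Gbp2b, Gbp2 and Gbp7 stood at places 8, 11, 13, 17 and 202 in Tnfr1,2-/- and at places 18, 10, 7, 17 and 154 in Tnfr1-/- glomeruli. These 2 comparisons share the wildtype arrays. In the comparison of Tnfr2-/- with wildtype glomeruli 0 of the 5 were called, where 0% of all genes were called. At an unadjusted p under 0.05 limma gave 128 genes, 1 of them Gbp2b. Tnfrsf1b, the gene targeted in these mice, was not called either (log2 change -2.30, 4.92-fold, limma adjusted p = 0.125). The test could thus miss a change of that size. By another test (SAM, significance analysis of microarrays) the paper listed Tnfrsf1b and a few other genes as lower in Tnfr2-/- glomeruli.

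Of the chromosome 3 genes, Gbp2, which in mouse macrophages is needed for full inflammasome activation by cytosolic bacteria, was measured on a pair of probe sets. On the one with the higher mean its log2 values were 7.73, 8.82 and 9.01 in Tnfr1,2-/-, 7.78, 8.96 and 8.85 in Tnfr1-/-, 12.23, 12.02 and 12.39 in Tnfr2-/- and 12.08, 12.39 and 12.33 in wildtype glomeruli (replicates 1 to 3). The 6 arrays without receptor 1 lay at least 3 log2 units below the 6 others, and replicate 1 was the lowest of both of these genotypes. Gbp2 was lower in Tnfr1,2-/- than in wildtype glomeruli by a log2 change of -3.75 (SE 0.35, 13.4-fold, limma adjusted p = 0.000232). In Tnfr1-/- against wildtype glomeruli the log2 change was -3.74 (SE 0.35, 13.3-fold, limma adjusted p = 0.000239). In Tnfr2-/- against wildtype glomeruli it was -0.05, with a 95% interval from -0.82 to 0.72.

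Gbp3, a family member for which few functions of its own are known, had log2 values of 5.61, 6.58 and 6.82 in Tnfr1,2-/-, 5.81, 7.39 and 6.40 in Tnfr1-/-, 11.00, 10.82 and 11.30 in Tnfr2-/- and 10.65, 10.82 and 10.92 in wildtype glomeruli. As with Gbp2, no array without receptor 1 came near any array that had it, and the spread was wider at the low end (SD 0.64 and 0.80 in Tnfr1,2-/- and Tnfr1-/-, 0.24 and 0.14 in Tnfr2-/- and wildtype). The log2 change was -4.46 in Tnfr1,2-/- against wildtype glomeruli (SE 0.38, 22-fold, limma adjusted p = 0.000103). It was -4.27 in Tnfr1-/- against wildtype glomeruli (SE 0.38, 19.2-fold, limma adjusted p = 0.000165) and 0.24 in Tnfr2-/- against wildtype glomeruli, with a 95% interval from -0.58 to 1.07.

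Gbp7, which in mouse macrophages takes part in assembling the phagocyte NADPH oxidase, had the smallest differences. On the probe set with the higher mean its log2 values were 7.82, 8.18 and 8.95 in Tnfr1,2-/-, 7.60, 8.63 and 8.49 in Tnfr1-/-, 9.53, 9.26 and 10.004 in Tnfr2-/- and 9.18, 9.38 and 9.68 in wildtype glomeruli. The arrays of Tnfr1,2-/- and of Tnfr1-/- did not overlap those of wildtype, as was so for 5.77% and 5.51% of all genes in the direction of a decrease. The log2 change was -1.10 in Tnfr1,2-/- against wildtype glomeruli (SE 0.33, 2.14-fold, limma adjusted p = 0.245) and -1.17 in Tnfr1-/- against wildtype glomeruli (SE 0.33, 2.25-fold, limma adjusted p = 0.191), and neither passed. With the array set as a block both passed, at limma adjusted p = 0.0197 and 0.025, as they did with the replicate number as a block, at 0.0168 and 0.0131. In Tnfr2-/- against wildtype glomeruli the log2 change was 0.19, with a 95% interval from -0.54 to 0.91.

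Gbp2b, long known as mouse Gbp1, was the gene in which single arrays decided the test. Its log2 values were 4.36, 4.90 and 4.43 in Tnfr1,2-/-, 4.38, 4.38 and 4.77 in Tnfr1-/-, 12.06, 11.75 and 12.34 in Tnfr2-/- and 10.79, 4.39 and 11.45 in wildtype glomeruli. The 6 arrays without receptor 1 and wildtype replicate 2 were all below the array medians, where the deposited values carry no detection call and a fold change is best read as a lower limit. The wildtype SD of 3.90 was larger than that of 99.99% of all genes in wildtype, and the median over all genes was 0.18. With that spread the log2 changes of -4.32 in Tnfr1,2-/- against wildtype glomeruli (SE 1.36, limma adjusted p = 0.277) and of -4.37 in Tnfr1-/- against wildtype glomeruli (SE 1.36, limma adjusted p = 0.279) did not pass. Without wildtype replicate 2 they were -6.56 and -6.62, and both would then be called. That array was singled out for its Gbp2b value, so this is a description and no test of Gbp2b.

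For the other genes of the family wildtype replicate 2 lay among or above the other wildtype arrays. Gbp2 and Gbp6 read 12.39 and 10.32 on it, the highest of the 3 wildtype arrays, and Gbp3 and Gbp7 read 10.82 and 9.38, between the other two. Of all genes only 2, Gbp2b and Tfpi2, lay more than 2 log2 units below both other wildtype arrays there. The gap of 6.40 between Gbp2b on this array and the next wildtype array was the largest gap of any gene on any of the 12 arrays, and Xist on Tnfr1-/- replicate 1 came next with 5.14. The mean macrophage marker value of this array was 8.09, against 7.58 and 7.44 on the other wildtype arrays, and its mesangial and tubular means, 9.07 and 5.17, were the lowest of the 12 arrays. In all, 0 of the 11 macrophage markers were called in any comparison with wildtype. Of the other marker lists, 1 of 9 neutrophil markers was called lower in Tnfr1,2-/- and 1 of 9 in Tnfr1-/- against wildtype glomeruli. In Tnfr1-/- glomeruli 1 of 10 endothelial and 1 of 9 mesangial markers were called higher. Such single calls say little of a list. The part of these markers in the Gbp2b value was not tested. Gbp2b had 1 probe set, so that the low value could not be set beside another of the same gene.

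With the same array included, Gbp2b was higher in Tnfr2-/- than in wildtype glomeruli by a log2 change of 3.17 (95% interval 0.20 to 6.15), which did not pass the adjustment. The 3 Tnfr2-/- arrays lay above the 3 wildtype arrays, as was so for 2.32% of all genes. Without wildtype replicate 2 the log2 change was 0.93.

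**Figure D2:**
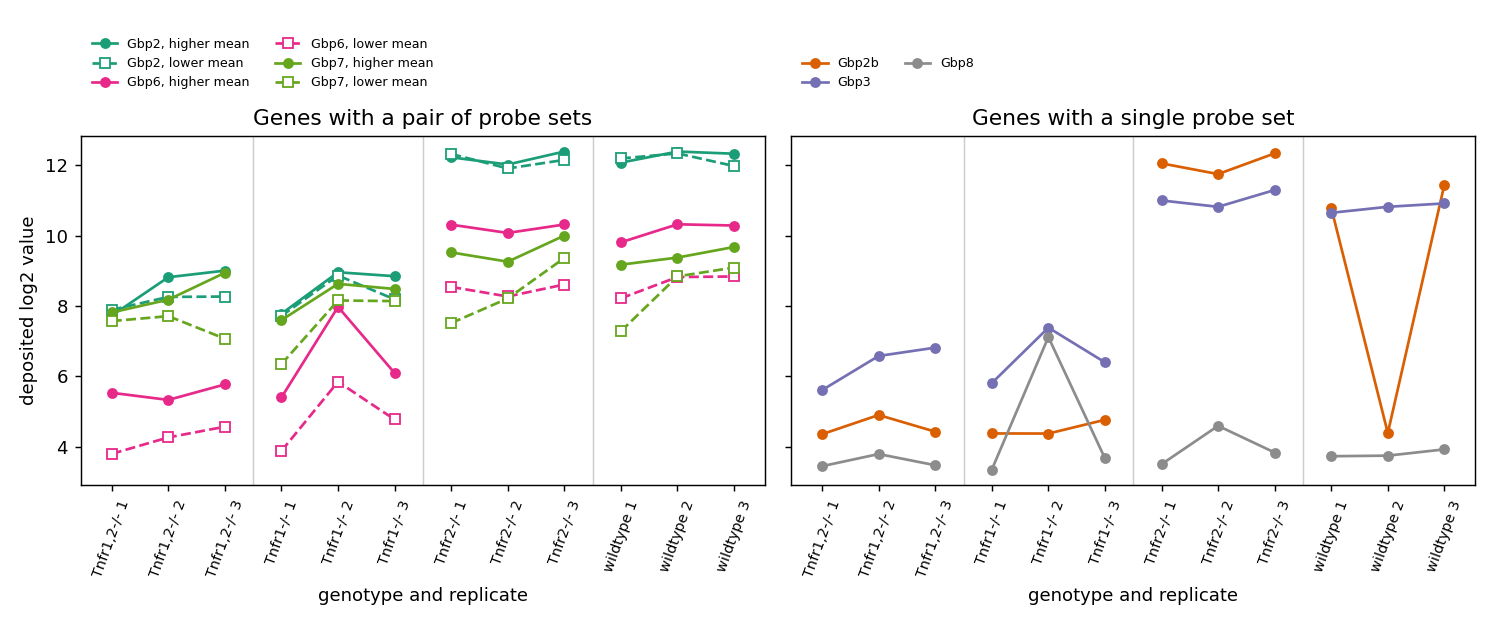
Deposited log2 value (y axis) on each of the 12 arrays (x axis, genotype and replicate) for genes with a pair of probe sets (left; filled symbols and solid lines for the one with the higher mean) and with a single probe set (right); lines join replicates of 1 genotype and imply no order. Gbp2b drops to 4.39 on wildtype replicate 2, where Gbp3 is at 10.82, and Gbp8 is at 7.12 on Tnfr1-/- replicate 2, against 3.35 and 3.67 on the other Tnfr1-/- arrays.

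Of the chromosome 5 genes, Gbp6 had log2 values of 5.53, 5.33 and 5.77 in Tnfr1,2-/-, 5.40, 7.98 and 6.10 in Tnfr1-/-, 10.31, 10.08 and 10.32 in Tnfr2-/- and 9.81, 10.32 and 10.29 in wildtype glomeruli, on the probe set with the higher mean. The Tnfr1,2-/- arrays were close to the array medians, whereas Tnfr1-/- replicate 2 stood 1.88 log2 units above the next array of its genotype. The log2 change was -4.60 in Tnfr1,2-/- against wildtype glomeruli (SE 0.49, 24.2-fold, limma adjusted p = 0.000561). It was -3.65 in Tnfr1-/- against wildtype glomeruli (SE 0.49, 12.6-fold, limma adjusted p = 0.00316) and -4.39 without Tnfr1-/- replicate 2 (limma adjusted p = 1.61e-05). With only the 6 arrays compared the Tnfr1-/- call was lost, at limma adjusted p = 0.0686. In Tnfr2-/- against wildtype glomeruli the log2 change was 0.09, with a 95% interval from -0.97 to 1.16.

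The probe set that Gbp4 shares with Gbp8 had low values throughout, 5.86, 6.66 and 6.92 in Tnfr1,2-/-, 5.95, 5.74 and 6.49 in Tnfr1-/-, 5.69, 5.88 and 6.55 in Tnfr2-/- and 5.85, 5.90 and 6.41 in wildtype glomeruli. The genotypes overlapped, and the log2 changes against wildtype were 0.43, 0.01 and -0.01 in Tnfr1,2-/-, Tnfr1-/- and Tnfr2-/- glomeruli. This signal cannot be divided between the 2 genes. Gbp8 itself, which is not among the 8 genes, read 3.35, 7.12 and 3.67 in Tnfr1-/- glomeruli and 3.45 to 4.60 on the 9 arrays of the other genotypes. The gap of 3.45 on Tnfr1-/- replicate 2 was the largest of any gene above its genotype on that array.

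On the array that carried the high Gbp6 and Gbp8 values, Gbp2, Gbp3 and Gbp7 were also the highest of the 3 Tnfr1-/- arrays (8.96, 7.39 and 8.63), while Gbp2b was not (4.38). The podocyte marker mean of this array was 9.83, against 11.36 and 11.32 on the other Tnfr1-/- arrays, its endothelial mean 10.24, against 9.93 and 9.26, and its macrophage mean 8.40, against 7.88 and 7.57. The part of these markers in the values was not tested.

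Genes with a pair of probe sets were compared with themselves. The second probe set of Gbp2 read 7.89, 8.26 and 8.27 in Tnfr1,2-/-, 7.72, 8.87 and 8.19 in Tnfr1-/-, 12.32, 11.91 and 12.16 in Tnfr2-/- and 12.20, 12.34 and 11.98 in wildtype glomeruli, again with no array without receptor 1 near those that had it. The second probe set of Gbp6 read 3.80, 4.27 and 4.57 in Tnfr1,2-/-, 3.88, 5.85 and 4.78 in Tnfr1-/-, 8.54, 8.27 and 8.61 in Tnfr2-/- and 8.22, 8.83 and 8.84 in wildtype glomeruli, with the same high Tnfr1-/- replicate 2. The decreases of these second probe sets in Tnfr1,2-/- against wildtype glomeruli were 16.4-fold for Gbp2 and 21.4-fold for Gbp6 (limma adjusted p = 3.74e-05 and 0.000525 over all probe sets). The second probe set of Gbp7 was less steady, at 7.57, 7.71 and 7.07 in Tnfr1,2-/-, 6.35, 8.16 and 8.14 in Tnfr1-/-, 7.52, 8.22 and 9.37 in Tnfr2-/- and 7.28, 8.84 and 9.10 in wildtype glomeruli. Its genotypes overlapped, and its log2 changes of -0.95 and -0.86 in Tnfr1,2-/- and Tnfr1-/- glomeruli had 95% intervals that included 0. Over the 9 probe sets of the 8 genes, 5 were called lower in Tnfr1,2-/- against wildtype glomeruli, where 0.451% of all 45037 probe sets were, and 5 in Tnfr1-/- against wildtype glomeruli, where 0.362% were. Those 5 were both probe sets of Gbp2 and of Gbp6 and the 1 of Gbp3.

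**Figure D3:**
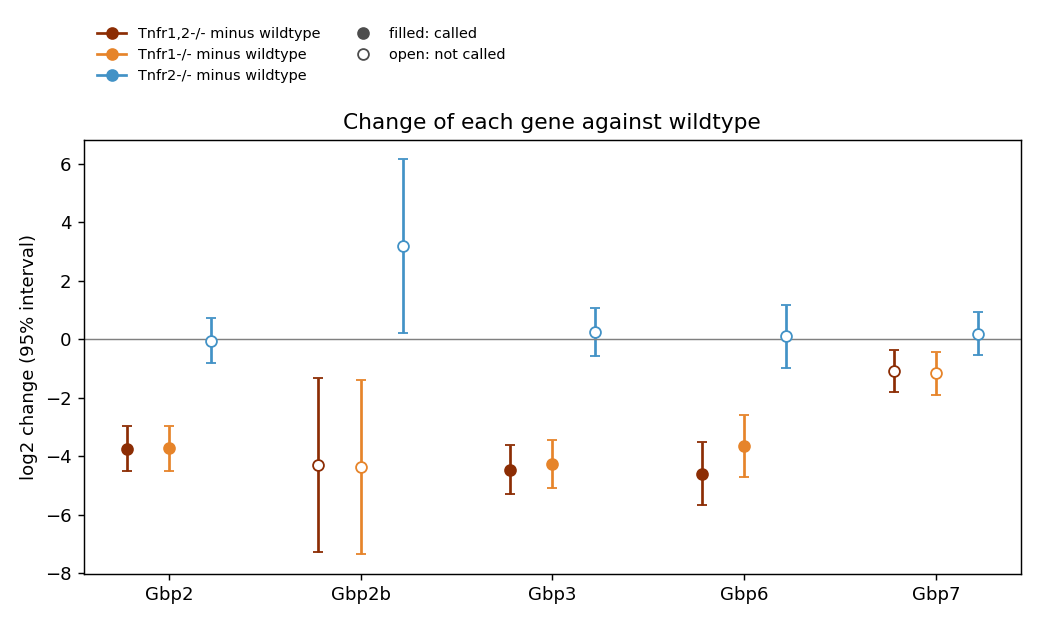
Log2 change (y axis) of 5 guanylate-binding protein genes (x axis) in Tnfr1,2-/-, Tnfr1-/- and Tnfr2-/- against wildtype glomeruli; points are limma estimates over 12 arrays, bars are 95% intervals, and filled points were called. Gbp2, Gbp3 and Gbp6 are filled and lie between -3.65 and -4.60 for the genotypes without receptor 1, the Gbp2b bars are the widest, and the Tnfr2-/- bars of Gbp2, Gbp3, Gbp6 and Gbp7 span 0.

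The mutants were then compared with each other. Other genetic differences between the B6.129 lines and their crosses cannot be told apart from receptor loss in any comparison of genotypes. In Tnfr1,2-/- against Tnfr1-/- glomeruli, which differ by design in receptor 2, 0 of the 5 genes were called. The share of all genes called was 0.0055%, and 0 of the 5 had an unadjusted limma p under 0.05. The log2 changes were -0.01 for Gbp2 (95% interval -0.78 to 0.76), 0.06 for Gbp2b (-2.92 to 3.03), -0.20 for Gbp3 (-1.02 to 0.63), -0.95 for Gbp6 (-2.02 to 0.12) and 0.08 for Gbp7 (-0.65 to 0.80). The Gbp6 value was -0.20 without Tnfr1-/- replicate 2 and -1.49 without Tnfr1-/- replicate 1. A difference of up to the ends of these intervals remains possible, and for Gbp2b they are wide.

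In Tnfr1,2-/- against Tnfr2-/- glomeruli, which differ by design in receptor 1, 4 of the 5 genes were called lower, where 1.04% of all genes were. In Tnfr1-/- against Tnfr2-/- glomeruli the same 4 were called lower, where 0.846% of all genes were. Gbp2b changed by -7.49 (SE 1.36, limma adjusted p = 0.0176) and -7.54 (SE 1.36, limma adjusted p = 0.0185), the largest measured decreases of all genes, with its low values below the array medians, so that their size is a lower limit. Gbp2, Gbp3 and Gbp6 changed by -3.70, -4.70 and -4.69 in Tnfr1,2-/- and by -3.69, -4.51 and -3.75 in Tnfr1-/- against Tnfr2-/- glomeruli, the last by -4.49 without Tnfr1-/- replicate 2. The log2 changes of Gbp7, -1.28 and -1.36, did not pass (limma adjusted p = 0.13 and 0.0982), but with the replicate number as a block both did (limma adjusted p = 0.00613 and 0.00514).

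These Gbp2b calls were open to single arrays, since the spread of wildtype replicate 2 enters the fit. Leaving out any 1 array of the 2 mutants compared ended the call. The limma adjusted p was then 0.0527 to 0.0777 in Tnfr1,2-/- and 0.056 to 0.0825 in Tnfr1-/- against Tnfr2-/- glomeruli. With each array left out in turn the log2 changes of Gbp2b stayed at -7.66 to -7.34 and at -7.69 to -7.40. Both calls stood without wildtype replicate 2, which was singled out for its Gbp2b value, so this is a description. Whether loss of receptor 2 acts differently with and without receptor 1 was tested as an interaction, and 0 of the 5 genes were called, with 0 at an unadjusted limma p under 0.05, where 0% of all genes were called.

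Within each array set all 5 genes were lower in Tnfr1,2-/- and in Tnfr1-/- than in wildtype glomeruli. With 1 or 2 arrays a genotype and no test, Gbp2 in Tnfr1,2-/- minus wildtype glomeruli differed by -4.51 in the set of 7 arrays and by -3.42 in the set of 5, Gbp3 by -5.13 and -4.22, Gbp6 by -4.53 and -4.74 and Gbp7 by -1.46 and -1.12. Gbp2b differed by -3.23 in the set of 7 arrays, which holds wildtype replicate 2, and by -6.79 in the set of 5. In Tnfr1-/- minus wildtype glomeruli the 2 sets gave -3.86 and -3.48 for Gbp2, -4.14 and -4.52 for Gbp3, -3.38 and -4.19 for Gbp6 and -1.16 and -1.19 for Gbp7. Without Tnfr1-/- replicate 1, the library that went against its label, the log2 changes in Tnfr1-/- against wildtype glomeruli were -3.36 for Gbp2 (limma adjusted p = 0.000732), -3.90 for Gbp3 (limma adjusted p = 0.000645), -3.11 for Gbp6 (limma adjusted p = 0.00818) and -0.85 for Gbp7 (limma adjusted p = 0.526).

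The pathway around the family was read from lists of related genes, of which the genes with the smallest adjusted p are named. The shares of all genes called lower, 0.879% in Tnfr1,2-/- and 0.72% in Tnfr1-/- against wildtype glomeruli, are the background of each count; in a list of 10 genes even 1 call is a share above it, so single calls say little of a list. Among the immunity-related GTPases, the other interferon-inducible GTPase family that acts on pathogen vacuoles, 1 of 7 measured genes was called lower in both genotypes without receptor 1. This was Ifi47, at 8.20 ± 0.30 in Tnfr1,2-/- and 8.66 ± 0.99 in Tnfr1-/-, against 10.93 ± 0.02 in Tnfr2-/- and 10.82 ± 0.21 in wildtype glomeruli (SD, n = 3 each). Its log2 change was -2.62 in Tnfr1,2-/- (limma adjusted p = 0.00414) and -2.16 in Tnfr1-/- against wildtype glomeruli (limma adjusted p = 0.017). Irgm2, Irgq and Irgm1, also of this family, had log2 changes of -0.62, -0.60 and -0.39 in Tnfr1,2-/- against wildtype glomeruli and were not called.

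Of the interferon ligands 0 of 6 were called in Tnfr1,2-/- or Tnfr1-/- against wildtype glomeruli. Ifng averaged 2.70 ± 0.08 in Tnfr1,2-/-, 2.76 ± 0.10 in Tnfr1-/-, 2.80 ± 0.11 in Tnfr2-/- and 2.82 ± 0.04 in wildtype glomeruli, and Ifnb1 averaged 4.16 ± 0.15, 4.24 ± 0.14, 4.25 ± 0.13 and 4.33 ± 0.28 in these genotypes, all below the array medians. Of the interferon receptors and Janus kinases 0 of 9 were called, each read on 1 probe set. Ifnar2, a chain of the type I receptor, had a log2 change of -0.87 in Tnfr1,2-/- against wildtype glomeruli (limma adjusted p = 0.0763). The paper listed Ifnar2 as lower there by SAM, and by a larger fold. The probe set it used may differ from the one read here. Of the transcription factors of interferon signalling 1 of 10 was called lower in Tnfr1,2-/- and 0 of 10 in Tnfr1-/- against wildtype glomeruli. The called gene was Irf1, an activator of many interferon-stimulated promoters, at 9.46 ± 0.45 in Tnfr1,2-/-, 9.81 ± 0.66 in Tnfr1-/-, 11.34 ± 0.13 in Tnfr2-/- and 11.22 ± 0.41 in wildtype glomeruli, with a log2 change of -1.76 in Tnfr1,2-/- (SE 0.33, 3.39-fold, limma adjusted p = 0.0215).

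Of the NF-κB subunits and inhibitors 3 of 10 were called lower in Tnfr1,2-/- and 2 of 10 in Tnfr1-/- against wildtype glomeruli. They were the feedback inhibitors Tnfaip3, with log2 changes of -1.97 and -1.34 in Tnfr1,2-/- and Tnfr1-/-, and Nfkbie, with -1.74 and -2.17, and, called in Tnfr1,2-/- alone, Nfkbia with -0.72 in Tnfr1,2-/- and -0.61 in Tnfr1-/- (limma adjusted p = 0.035 and 0.0829); the difference between the genotypes was not tested. Of 24 other interferon-stimulated genes 6 were called lower in Tnfr1,2-/- and 3 in Tnfr1-/- against wildtype glomeruli. The largest of these decreases was that of Psmb8, an immunoproteasome subunit, at -3.02 in Tnfr1,2-/- and -2.30 in Tnfr1-/- glomeruli. Xaf1, a pro-apoptotic protein, changed by -1.58 and -1.54, and the RNA sensor Ddx58 by -1.11 and -0.81. The median log2 change of the 24 was -0.32 in Tnfr1,2-/- and -0.05 in Tnfr1-/- glomeruli, against 0.00 over all genes. For the guanylate-binding proteins the medians were -4.32, which is the value of the uncalled Gbp2b, and -3.74. The family and the lists were chosen with earlier results of these data known, so setting these medians side by side is a description.

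Downstream, 1 of 9 inflammasome proteins and inflammatory caspases was called lower in Tnfr1,2-/- and 2 of 9 in Tnfr1-/- against wildtype glomeruli. Gsdmd, the pore former of pyroptosis, changed by -1.40 in Tnfr1,2-/- (limma adjusted p = 0.00616) and by -1.23 in Tnfr1-/- (limma adjusted p = 0.0169), and Il1b, the cytokine interleukin-1 beta, by -1.22 in Tnfr1-/- (limma adjusted p = 0.0047). Casp4, the receptor for cytosolic lipopolysaccharide, had a log2 change of -1.83 in Tnfr1,2-/- against wildtype glomeruli and was not called (limma adjusted p = 0.0615). The paper listed Casp4 as lower there by SAM. Of 6 prenyl transferases and CaaX processing enzymes, which attach the lipid anchors that some guanylate-binding proteins carry, 0 were called, and likewise 0 of 11 ATG8 conjugation proteins, which help to place these GTPases on vacuoles, and 0 of 9 other dynamin superfamily GTPases. In Tnfr2-/- against wildtype glomeruli 0 genes of any of these lists were called, where 0% of all genes were.

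Other genes were ordered by how close their log2 values, centred on their own mean, came to the mean of the 5 guanylate-binding protein genes over the 12 arrays, measured as the root mean square difference. Of the 5 genes themselves, which are part of that mean, Gbp3 stood at 0.475, Gbp2 at 0.481, Gbp6 at 0.626, Gbp7 at 1.39 and Gbp2b at 1.88 log2 units. The 5 nearest genes outside the family were the chemokines Cxcl9 (0.488), Cxcl10 (0.490) and Cxcl2 (0.539), the leukocyte adhesion molecule Icam1 (0.556) and the alcohol dehydrogenase Adhfe1 (0.613). Cxcl10 averaged 7.83 ± 0.33 in Tnfr1,2-/-, 8.15 ± 0.88 in Tnfr1-/-, 12.14 ± 0.08 in Tnfr2-/- and 12.24 ± 0.20 in wildtype glomeruli (SD, n = 3 each). Cxcl9 averaged 4.0 ± 0.35, 4.10 ± 0.30, 7.77 ± 0.55 and 7.88 ± 0.49 in the same genotypes. All 5 were lower in both genotypes without receptor 1 than in wildtype glomeruli, with log2 changes from -3.00 to -4.69 in Tnfr1,2-/- and from -3.09 to -4.27 in Tnfr1-/-. This likeness was searched for among all genes and is a description.

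**Figure D4:**
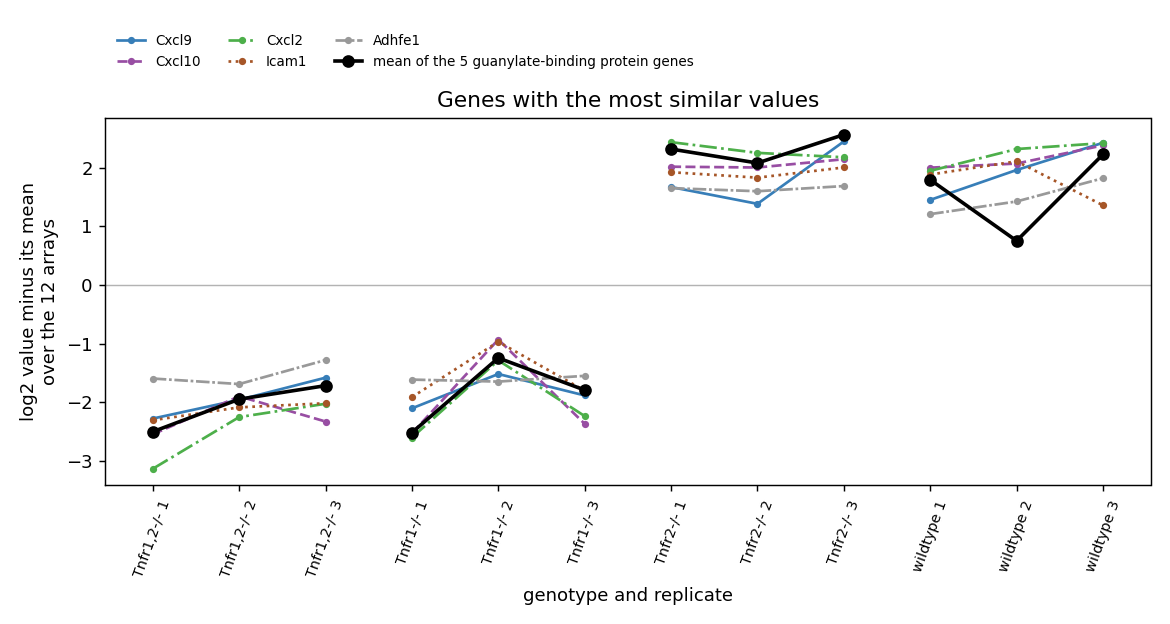
Log2 value minus its mean over the 12 arrays (y axis) on each array (x axis, genotype and replicate) for the mean of the 5 guanylate-binding protein genes (black) and the 5 nearest other genes; lines join replicates of 1 genotype and imply no order. All lie below 0 on the 6 Tnfr1,2-/- and Tnfr1-/- arrays and above 0 on the 6 Tnfr2-/- and wildtype arrays, and on wildtype replicate 2, where Gbp2b read 4.39, the black line is below the 5 others.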

How the data were processed

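Total RNA of TNF-exposed glomeruli was hybridized to 12 Affymetrix whole-genome mouse arrays. The authors scanned them with GCOS and normalized all 12 together by the robust multichip average (RMA Express), and the deposited values are on the log2 scale (1.93 to 14.1). They were used as deposited; scanner files and detection calls were not used here, and the number of arrays limits the precision.

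Of 45037 probe sets that are not controls, 34945 carried 1 gene symbol in the platform annotation, 932 several and 9160 none; only the first kind entered the tests by gene. For each of 18193 genes the probe set of highest mean stood for the gene. Linear models (limma 3.58.1, run in R 4.3.3; eBayes without trend, 8 residual degrees of freedom) were fitted on all 12 arrays, without covariates, for 6 pairs of genotypes and 1 interaction, with Benjamini-Hochberg adjustment over all genes of a comparison; calls required an adjusted p under 0.05 and at least 1.5-fold. A second fit used all 45037 probe sets. The fit was tested on simulated data. P-values measure the spread between preparations. The labels number the replicates in each genotype without saying what a number shares. Deviations from the group means correlated over 0.1 in all 9 same-numbered pairs among Tnfr1-/-, Tnfr2-/- and wildtype arrays (r = 0.18 to 0.73) and in 6 of 9 with a Tnfr1,2-/- array (r = -0.23 to 0.61), so a fit with the replicate number as a block is given where it changed a call.

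The members and gene lists were chosen with earlier results of these data known. The genes named are the members on all their probe sets, up to 4 genes of each pathway list with the smallest adjusted p in Tnfr1,2-/- against wildtype glomeruli, Gbp8, Gbp10 and Gbp11, the 2 targeted genes and the 5 genes nearest to the members' mean; Il1b, Xist, Eif2s3y, Kdm5d and Tfpi2 were named after their values were seen. Alternatives were other summaries of probe sets, the statistic of SAM (the methods' test, written anew), arrays, variance models, weights, thresholds, scalings, filters, blocks and each array left out. Promoter sequences are from RefSeq (GRCm38.p6); 1 other motif searched is not reported here.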

Additional observations from a re-analysis of the deposited data

How the results depend on the processing

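The numbers of guanylate-binding protein genes called were within 1.5 times under all alternatives run (2 to 4 in Tnfr1,2-/- and in Tnfr1-/- against wildtype glomeruli, 0 in Tnfr2-/- against wildtype and in Tnfr1,2-/- against Tnfr1-/-, 3 to 5 in either genotype without receptor 1 against Tnfr2-/-). Counted over probe sets, 3 were called in Tnfr1-/- against wildtype glomeruli with only the 6 arrays compared, and 3 in Tnfr1,2-/- and 3 in Tnfr1-/- without probe sets marked for several transcripts, which leaves 7 of the 9; the cause was not tested for the first. The filter on probe sets marked for several transcripts removes the higher-mean probe set of Gbp2 and the only one of Gbp3, so Gbp3 was not tested there. Leaving out single arrays gave 5 to 6 and 5. With the replicate number as a block Gbp7 passed in Tnfr1,2-/- and Tnfr1-/- against wildtype (limma adjusted p = 0.0168 and 0.0131) and against Tnfr2-/- glomeruli (0.00613 and 0.00514), and no other of these genes changed its call. Calls over all genes were then 328 lower and 269 higher in Tnfr1,2-/- and 240 lower and 197 higher in Tnfr1-/- against wildtype glomeruli, against 160 and 76, and 131 and 88, without the block. Gbp7 also passed with array weights (limma adjusted p = 0.0143 to 0.0243) and, in Tnfr1-/- against Tnfr2-/-, by SAM (q = 0.0241).

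Values near 0 changed sign, none of them called. In Tnfr2-/- against wildtype glomeruli Gbp6 was at -0.029 with the mean of its probe sets. In Tnfr1,2-/- against Tnfr1-/- glomeruli Gbp7 was at -0.010 with that mean and at -0.10 with the array set as a block, Gbp2b at -0.36 with that block, Gbp2 at 0.46 and Gbp3 at 0.22 with array weights, and Gbp2 at 0.00023 with median centring. An alternative added after the values were seen left out wildtype replicate 2 and Tnfr1-/- replicate 1 together: Gbp2 was at 0.011 in Tnfr2-/- against wildtype, and Gbp2b at -0.0078 and Gbp7 at -0.24 in Tnfr1,2-/- against Tnfr1-/- glomeruli. Leaving out each array gave, in Tnfr2-/- against wildtype glomeruli, -0.15 to 0.044 for Gbp2, -0.070 to 0.19 for Gbp6 and -0.018 to 0.35 for Gbp7, and in Tnfr1,2-/- against Tnfr1-/- glomeruli -0.39 to 0.38 for Gbp2, -0.11 to 0.19 for Gbp2b, -0.56 to 0.23 for Gbp3, -1.49 to -0.20 for Gbp6 and -0.24 to 0.32 for Gbp7. Signals near or below the array medians bound what can be said of the low genotypes of Gbp2b and Gbp6.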
